A study of Mus musculus with 26 samples.

Results

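The circadian clock genes of the left ventricle are 10 genes of a matrix that lists 56941, chosen by name: Arntl (named Bmal1 in newer annotation), Npas2, Per1, Per2, Per3, Ciart, Nr1d1, Nr1d2, Dbp and Tef. All 10 were abundant enough to be tested, among 15357 genes in all. RNA sequencing covered 26 mice, 1 library each, and the mice differed in sex and in the state of Ppp2r2a, the gene for the B55α regulatory subunit of the phosphatase PP2A. Control mice (Ctrl, genotype aMHC-Cre0/0-Ppp2r2aL/L) carried loxP-flanked Ppp2r2a alleles without Cre, and knockout mice (cKO, genotype aMHC-CreTg/0-Ppp2r2aL/L) carried the same alleles with a Cre transgene. The aMHC promoter restricts that Cre to cardiomyocytes, so other cells of the ventricle keep the gene. Males comprised 6 Ctrl and 7 cKO, and females likewise 6 Ctrl and 7 cKO, all aged 12 to 16 weeks. All of them, controls included, had received saline from an osmotic minipump for 2 weeks, and all were housed in a cycle of 12 hours of light and 12 hours of dark. Their genetic background is mixed, with floxed alleles from C57BL6/N and a Cre transgene from FVB. Mice with Cre alone were not analysed here. The labels give no hour of collection, so what the clock genes say about time rests on their relations to each other.

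The mammalian clock is a transcriptional loop that runs in nearly every cell, cardiomyocytes included. The activators BMAL1 (from Arntl) and CLOCK or NPAS2 bind E-boxes and drive Per, Cry, Ciart, Nr1d and Dbp genes. PER and CRY proteins then repress the activators, and CIART represses them as well. The nuclear receptors REV-ERBα and REV-ERBβ (from Nr1d1 and Nr1d2) compete with ROR receptors at ROR elements and thereby repress Arntl, Npas2 and Clock. DBP and TEF are PAR-bZIP factors, which carry the rhythm to metabolic genes through D-boxes. In mouse tissues the transcripts follow one another through the day. Nr1d1 peaks first, followed by Dbp and Ciart and then by the Per genes, Cry1 comes later, and Arntl, Npas2 and Clock peak nearly opposite to Dbp. A single time point per mouse thus gives a profile, and mice collected at different hours should differ in it along a known order.

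Clock factors are known to bind short elements in promoters, and the stretches printed here come from windows of clock genes in which letters of such an element were found. They come from RefSeq on GRCm38.p6, where 9 of the 10 genes matched with 12 start sites. Per2 had no entry. Each sequence holds the 250 bases before the start, 5′ to 3′ on the strand of the gene, with the motifs in capitals. On both strands, the letters searched were CACGTG (E-box), CACGTT (E-box variant), AGGTCA (core of the ROR element, TGACCT on the other strand) and TTATGTAA or TTACGTAA (D-box), in windows of 250 bases before to 50 after the start.
Ciart, chr3:95882229-95882478, minus strand, 3 E-boxes: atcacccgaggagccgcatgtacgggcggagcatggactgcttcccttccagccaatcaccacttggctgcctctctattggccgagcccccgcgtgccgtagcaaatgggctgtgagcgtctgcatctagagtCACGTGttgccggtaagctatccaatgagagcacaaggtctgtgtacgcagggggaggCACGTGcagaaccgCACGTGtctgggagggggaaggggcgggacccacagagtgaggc
Tef, chr15:81802423-81802672, plus strand, 1 E-box: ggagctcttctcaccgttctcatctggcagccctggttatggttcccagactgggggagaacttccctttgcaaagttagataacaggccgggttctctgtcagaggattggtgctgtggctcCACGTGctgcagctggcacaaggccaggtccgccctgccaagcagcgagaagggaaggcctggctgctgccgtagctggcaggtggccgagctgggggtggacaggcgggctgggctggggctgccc
Per1, chr11:69098699-69098948, plus strand, 1 E-box and 1 ROR core: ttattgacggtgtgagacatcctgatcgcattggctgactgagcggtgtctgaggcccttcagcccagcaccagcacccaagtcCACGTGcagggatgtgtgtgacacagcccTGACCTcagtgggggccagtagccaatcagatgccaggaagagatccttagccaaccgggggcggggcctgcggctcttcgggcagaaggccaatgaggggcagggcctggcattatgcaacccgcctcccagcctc
Per3, chr4:151044666-151044915, minus strand, 2 D-boxes: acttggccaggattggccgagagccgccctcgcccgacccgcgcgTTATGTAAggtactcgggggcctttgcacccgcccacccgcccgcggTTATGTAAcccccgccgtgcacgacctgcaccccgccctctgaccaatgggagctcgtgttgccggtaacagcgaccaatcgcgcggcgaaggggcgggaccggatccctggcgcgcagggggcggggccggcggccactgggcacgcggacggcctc
The E-boxes of Ciart begin 116, 58 and 44 bases before the start, that of Tef 127 and that of Per1 166 bases before it. The D-boxes of Per3 begin 205 and 158 bases before the start. In shorter stretches of 30 bases, Nr1d1 has the variant E-box, and Nr1d2 and the downstream start of Arntl have the ROR core.
Nr1d1, chr11:98775388-98775417, minus strand: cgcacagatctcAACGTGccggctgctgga
Nr1d2, chr14:18239166-18239195, minus strand: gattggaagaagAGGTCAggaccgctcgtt
Arntl, chr7:113207530-113207559, plus strand: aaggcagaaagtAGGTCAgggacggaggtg
The E-box letters occurred in 4 of the 12 windows, from Ciart, Per1 and both starts of Tef. Of all 32851 mouse windows of the same length, 7.15% held an E-box, 4.68% the variant, 16.3% the ROR core and 1.06% a D-box. A match of letters is a description of the sequence and not a measured binding site.

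Total counts per library lay between 14403102 and 30867399. Ppp2r2a separated the genotypes in both sexes, with a log2 fold change of -1.40 (SE 0.14) in males and -1.58 (SE 0.14) in females. Ctrl males 3 and 6 stood apart from the other Ctrl males, at 24.9 and 24.1 counts per 1e6 counts (CPM) against 41.9 to 47.7 CPM, while the highest cKO male was at 16.2 CPM. All 8 cardiomyocyte markers examined were present, with a summed level of 60153 to 81352 CPM over the 26 libraries. The labels name no batch. In tissue RNA, fewer cells of a type and less RNA per cell cannot be told apart. Each p-value below judges a difference or a relation against the spread between mice within groups.

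Among the clock genes the outputs and the REV-ERB genes were abundant and the 2 activators were scarce. On a scale of CPM per kilobase of the longest annotated transcript, Dbp was highest at 75.5 ± 12.7 (SD, n = 26), followed by Tef at 44.6 ± 5.66, Nr1d1 at 29.1 ± 8.07, Nr1d2 at 23.99 ± 2.57 and Per1 at 19.8 ± 4.6. The SD ranges of Nr1d1, Nr1d2 and Per1 overlapped. Ciart at 9.91 ± 3.56, Per2 at 8.33 ± 1.8 and Per3 at 7.4 ± 1.02 formed a middle group whose spreads overlapped. Arntl was at 0.672 ± 0.306 and Npas2 at 0.543 ± 0.166 on that scale, again within each other's spread. These scarce genes rest on few reads. Arntl had 17 to 136 counts and Npas2 27 to 84 counts per library, so that counting error alone gives a typical library an SD of 0.21 and 0.22 on the log2 scale, against 0.02 for Tef.

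The genes also differed in how far the mice lay apart. Between the lowest and the highest of the 26 mice the level differed 5.19-fold for Arntl, 4.3-fold for Ciart, 3.34-fold for Npas2 and 3.32-fold for Nr1d1. The smallest ranges were 1.77-fold for Per3, 1.65-fold for Nr1d2 and 1.56-fold for Tef. The SD of log2 CPM after centring on the 4 group means was 0.58 for Arntl and 0.58 for Ciart, above 94.6% and 94.3% of all genes tested. For Tef it was 0.15, above 36.1% of genes, and over all genes the median was 0.19. Compared with genes of like abundance, the biological variation in edgeR was 2.99 times the trend for Ciart, 2.71 times for Nr1d1 and 2.07 times for Per1, which placed these genes above 99.1%, 98.8% and 97.2% of all genes. Tef, at 0.93 times the trend, and Nr1d2, at 1.01 times, lay above 66.4% and 73.2% of all genes on that measure.

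**Figure D1:**
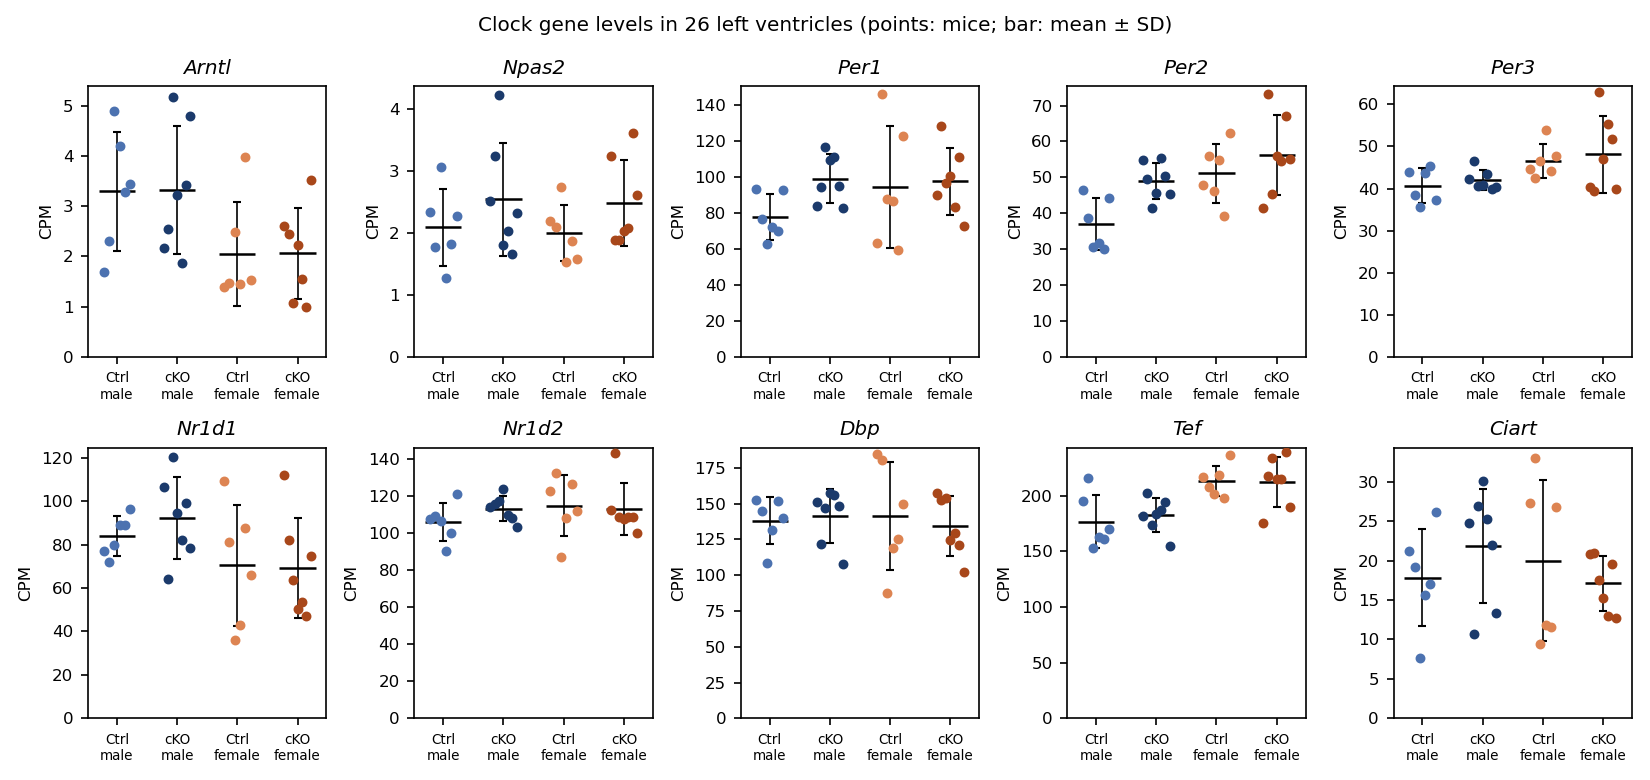
Level of each clock gene in CPM (y axes start at 0) for the 4 groups. Each point is 1 mouse, the long bar is the group mean and the error bar is ± SD; in every panel the 4 groups overlap, and Arntl and Ciart cover the widest ranges.

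No clock gene passed the threshold of an adjusted p under 0.05 over all genes in any of the 6 comparisons made with edgeR's quasi-likelihood test. In males 0 of 10 were called between cKO and Ctrl, where 0.443% of all genes were. In females it was 0 of 10 against a background of 0.0326%, and for the difference between the male and female genotype effects 0 of 10 against 0%. Between females and males it was 0 of 10 in Ctrl, where 0.638% of genes were called, and 0 of 10 in cKO, where 2.7% were. For the mean genotype effect it was 0 of 10 against 1.33%. A count of 0 of 10 is thus close to the background in each comparison. DESeq2 called 1 of the 10 (Per2) in males and 1 (Per2) between the Ctrl sexes, and 0 in the other 4 comparisons. Of all genes, DESeq2 called 386 in males and 253 between the Ctrl sexes. At an unadjusted p under 0.05 there were 1 of 10 in males (13.2% of all genes), 0 in females (5.15%), 0 for the difference (3.96%), 4 between the sexes in Ctrl (12.1%), 3 in cKO (17.3%) and 1 for the mean (14.1%). The groups overlapped for every clock gene in all 4 comparisons of 2 groups, whereas 1.28% of all genes had separate groups between the male genotypes, 0.169% between the female genotypes, 1.02% between the Ctrl sexes and 1.09% between the cKO sexes. The median log2 fold change of the 10 genes was 0.12 in males and 0.00 in females by genotype, and by sex 0.14 in Ctrl and -0.02 in cKO. Over all genes these medians were 0.00, 0.00, 0.00 and 0.01.

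Arntl encodes BMAL1, the activator without which the loop stops. Its level in males ran from 1.68 to 4.9 CPM with a median of 3.36 CPM in Ctrl, and from 1.87 to 5.19 CPM with a median of 3.23 CPM in cKO. In females it ran from 1.39 to 3.98 CPM around 1.49 CPM in Ctrl, and from 0.9995 to 3.52 CPM around 2.23 CPM in cKO. Both genotypes of a sex covered nearly the same range, and in Ctrl females a single mouse, number 5, carried the high end. The log2 fold change of cKO against Ctrl was -0.00 (SE 0.30) in males and 0.01 (SE 0.33) in females, and the 95% confidence interval in males reached from -0.61 to 0.61. Between the sexes, females stood at -0.70 relative to males (SE 0.32, edgeR adjusted p = 0.387) in Ctrl and at -0.68 (SE 0.30, edgeR adjusted p = 0.238) in cKO, neither past the threshold.

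Npas2 encodes a partner of BMAL1 that can stand in for CLOCK. It lay between 1.27 and 3.07 CPM in Ctrl males and between 1.65 and 4.23 CPM in cKO males, with medians of 2.05 and 2.33 CPM. In females the range was 1.54 to 2.75 CPM around 1.98 CPM in Ctrl and 1.89 to 3.62 CPM around 2.09 CPM in cKO. The cKO ranges reached higher in both sexes, on a small shift of the medians. The fold change was 0.29 (SE 0.22) in males, 0.33 (SE 0.23) in females and 0.31 (SE 0.16, edgeR adjusted p = 0.384) for the mean of both. Without Ctrl males 3 and 6 the male value was 0.51 (edgeR adjusted p = 0.379), over 1.5 times as large.

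Per1 and Per2 encode repressors that also respond acutely to light and hormone signals. Per2 ran from 30.0 to 46.4 CPM around 35.1 CPM in Ctrl males and from 41.6 to 55.3 CPM around 49.5 CPM in cKO males. In females it ran from 39.3 to 62.3 CPM around 51.4 CPM in Ctrl and from 41.5 to 73.3 CPM around 55.2 CPM in cKO. Ctrl males were thus the lowest group, with the lowest value in Ctrl male 5, and all other groups overlapped with one another broadly. In males the fold change by genotype was 0.41 (SE 0.13, unadjusted p = 0.00381, edgeR adjusted p = 0.13), and in females 0.13 (SE 0.13, edgeR adjusted p = 0.98). The difference between these, -0.28 (SE 0.18), had an edgeR adjusted p of 0.999. Ctrl females exceeded Ctrl males by 0.47 (SE 0.13, edgeR adjusted p = 0.103), and cKO females exceeded cKO males by 0.20 (SE 0.12, edgeR adjusted p = 0.442). Both comparisons that Per2 came nearest to passing share the Ctrl males. A DESeq2 Wald test put it past the threshold in both, with an adjusted p of 0.0427 for genotype in males and 0.0336 for sex in Ctrl.

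Per1 lay between 62.5 and 93.2 CPM in Ctrl males around 74.3 CPM, and between 82.8 and 116.9 CPM in cKO males around 95.01 CPM. Ctrl females were the most scattered group, from 59.3 CPM in mouse 5 to 146.2 CPM in mouse 2 around 87.3 CPM, and cKO females lay between 72.5 and 128.3 CPM around 96.8 CPM. The range of the Ctrl females held all of the male values. By genotype, males differed by 0.35 (SE 0.17, edgeR adjusted p = 0.39) and females by 0.05 (SE 0.17), with a difference of -0.30 (SE 0.24).

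Per3, a weaker member of the Per family, stayed between 35.6 and 46.5 CPM in all 13 males. In females it ran from 42.4 to 53.8 CPM in Ctrl and from 39.3 to 63.0 CPM in cKO. By genotype it differed by 0.04 (SE 0.09) in males and 0.05 (SE 0.09) in females. By sex it was higher in females by 0.19 (SE 0.09, edgeR adjusted p = 0.407) in Ctrl and 0.20 (SE 0.09, edgeR adjusted p = 0.228) in cKO, neither past the threshold.

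Ciart encodes CHRONO, a repressor of the BMAL1 complex. It ran from 7.69 to 26.1 CPM around 18.1 CPM in Ctrl males and from 10.7 to 30.1 CPM around 24.7 CPM in cKO males. In females it ran from 9.44 to 33.1 CPM around 19.3 CPM in Ctrl and from 12.7 to 20.9 CPM around 17.5 CPM in cKO. The spread within Ctrl females alone was 3.5-fold, larger than any difference between group means. The fold change was 0.30 (SE 0.30) in males and -0.23 (SE 0.30) in females, and their difference of -0.52 (SE 0.43, edgeR adjusted p = 0.999) was the widest of the 10 genes without passing the test.

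Nr1d1 lay in a narrow band in Ctrl males, from 71.9 to 96.3 CPM around 84.4 CPM, and between 64.3 and 120.5 CPM around 94.7 CPM in cKO males. Females reached much lower, from 36.3 to 109.5 CPM around 73.5 CPM in Ctrl and from 47.2 to 112.0 CPM around 63.7 CPM in cKO. The top of the female ranges lay within the range of the males. The genotype fold change was 0.14 (SE 0.22) in males and -0.03 (SE 0.22) in females. In cKO, females were at -0.42 (SE 0.21, edgeR adjusted p = 0.325) relative to males. Its paralog Nr1d2 was steadier, between 87.3 and 143.5 CPM over all mice, with a fold change of 0.10 (SE 0.08) in males and -0.03 (SE 0.08) in females.

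Dbp, the strongest cycling output in many tissues, ran from 108.4 to 152.3 CPM around 142.3 CPM in Ctrl males and from 107.5 to 157.2 CPM around 148.2 CPM in cKO males. In females it ran from 87.4 to 184.3 CPM around 137.5 CPM in Ctrl and from 102.0 to 157.7 CPM around 129.3 CPM in cKO. The highest and the lowest Dbp of all 26 mice were both in Ctrl females, in mice 1 and 3. The genotype fold change was 0.03 (SE 0.14) in males and -0.07 (SE 0.14) in females.

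Tef, the other PAR-bZIP factor, ran from 153.4 to 215.7 CPM around 166.7 CPM in Ctrl males and from 154.5 to 202.2 CPM around 183.4 CPM in cKO males. In females it ran from 198.3 to 236.2 CPM around 212.4 CPM in Ctrl and from 175.9 to 239.0 CPM around 215.3 CPM in cKO. Females lay higher, yet the male and female ranges overlapped in both genotypes. The sex difference was 0.27 (SE 0.08, edgeR adjusted p = 0.112) in Ctrl and 0.22 (SE 0.07, edgeR adjusted p = 0.106) in cKO, while the genotype differences were 0.05 (SE 0.08) in males and -0.01 (SE 0.08) in females. Tef came so near the threshold that 1 mouse decided the call. It passed with an adjusted p of 0.0436 in Ctrl without Ctrl male 2, and of 0.0429 in cKO without cKO female 1.

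**Figure D2:**
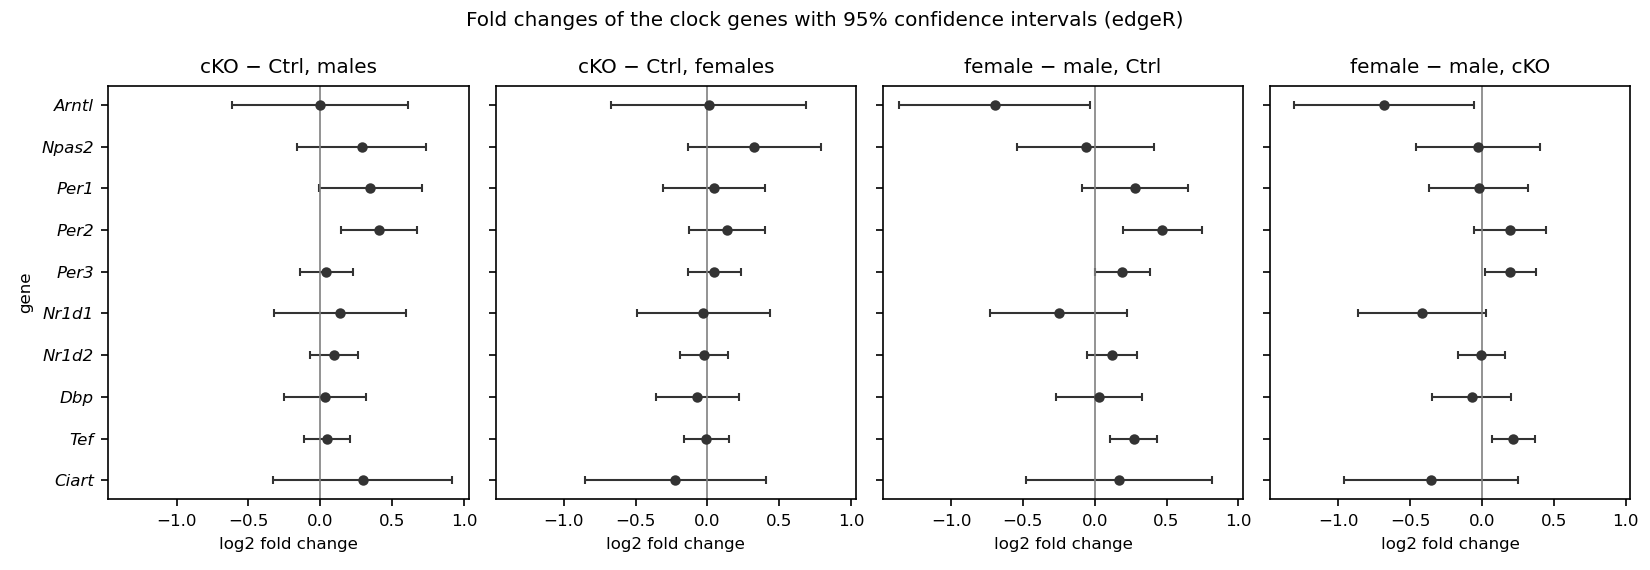
Log2 fold change of each clock gene (x axes, shared scale) in 4 comparisons, with 95% confidence intervals from edgeR. Intervals are widest for Arntl and Ciart; Per2 lies above 0 in males by genotype and in Ctrl by sex, and in both comparisons of sex Tef and Per3 lie above 0 and Arntl below 0, with no adjusted p under 0.05.

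The phase relations between the genes were examined next, over mice and with the 4 group means removed, so that no difference between groups could create one. Of 45 pairs, 7 were related by a two-sided permutation test with 100000 shuffles within groups (Benjamini-Hochberg adjusted p under 0.05 over the 45 pairs), 5 with a positive and 2 with a negative r. Of the 7, 5 also passed by Spearman's rho, and 6 had the same sign in all 4 groups. Further pairs passed by rho but not by r (permutation adjusted p of 0.0354 to 0.0433 for rho). They were Arntl with Per2, Per3 with Nr1d1, Per1 with Tef, and Ciart with Per1 and with Nr1d2. The closest pair was Dbp and Ciart, of which only Ciart has E-box letters in the promoter window. Their Pearson r was 0.845 (n = 26, permutation p = 1e-05, the smallest that these shuffles can give, adjusted p = 0.00045) and Spearman's rho 0.783 (permutation p = 4e-05). Within groups r was between 0.708 and 0.924, and it was 0.842 without the 2 mice farthest from the Dbp median. A mouse with high Dbp thus had high Ciart. Ctrl female 3 had the lowest Dbp of all mice, 87.4 CPM, with 9.44 CPM of Ciart, and Ctrl female 2 had 180.8 CPM of Dbp with the highest Ciart, 33.1 CPM.

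The next closest pair was opposed. Arntl and Tef had an r of -0.743 (n = 26, permutation p = 5e-05, adjusted p = 0.00112) and a rho of -0.763 (permutation p = 4e-05). It was -0.618 to -0.849 within groups and -0.728 without the 2 mice farthest from the Arntl median. The mouse lowest in Arntl, cKO female 6 at 0.9995 CPM, had the highest Tef, 239.0 CPM, and Ctrl male 3, at 4.9 CPM of Arntl, had the lowest Tef, 153.4 CPM. Arntl was also opposed to Per3, with an r of -0.597 (n = 26, permutation p = 0.00386, adjusted p = 0.0347), rho -0.558 (permutation p = 0.00846) and -0.599 without 2 mice. With Per2 its r was -0.522 (permutation adjusted p = 0.0557), and its rho of -0.536 passed (permutation adjusted p = 0.0433). The r of Arntl with Dbp was -0.443 (permutation adjusted p = 0.113), and with Nr1d1 0.282 (permutation adjusted p = 0.346).

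Around Dbp the REV-ERB genes moved in the same direction. Nr1d1 and Dbp had an r of 0.646 (n = 26, permutation p = 0.00505, adjusted p = 0.0379, rho 0.552 with permutation p = 0.0157), and 0.511 without 2 mice. Within Ctrl males it was 0.0216, and in the other groups 0.461 to 0.84. Nr1d2 and Dbp had an r of 0.63 (n = 26, permutation p = 0.00363, adjusted p = 0.0347, rho 0.505 with permutation p = 0.0157), 0.483 without 2 mice and 0.0872 to 0.848 within groups. Neither pair passed by rho (permutation adjusted p = 0.0543 for both) or without 2 mice (permutation adjusted p = 0.132 for both).

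The Per genes split. Per1 and Per2 were related with an r of 0.592 (n = 26, permutation p = 0.00279, adjusted p = 0.0347, rho 0.61 with permutation p = 0.00293), 0.548 without 2 mice. In 3 groups the r was 0.582 to 0.945, and in cKO males it was -0.317. Per2 and Tef had an r of 0.577 (n = 26, permutation p = 0.0062, adjusted p = 0.0399, rho 0.638 with permutation p = 0.00179), 0.525 without 2 mice and 0.476 to 0.823 within groups. Without 2 mice, neither Per1 with Per2 nor Per2 with Tef passed (permutation adjusted p = 0.0694 and 0.12). Per3 was unrelated to its paralogs, with an r of 0.01 to Per1 and -0.04 to Per2. It lay opposite to Nr1d1 with an r of -0.5 (permutation adjusted p = 0.0587) and a rho of -0.569 (permutation adjusted p = 0.0354). The r of Nr1d1 with Per1 was -0.103 and with Per2 -0.238. Npas2 had no pair past the threshold and an r of 0.123 with Arntl, and its low counts limit what could be detected. With library totals in place of TMM scaling, 2 pairs remained past the threshold, Dbp with Ciart and Arntl with Tef, and the others had adjusted p of 0.0543 to 0.105 with r of the same sign.

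**Figure D3:**
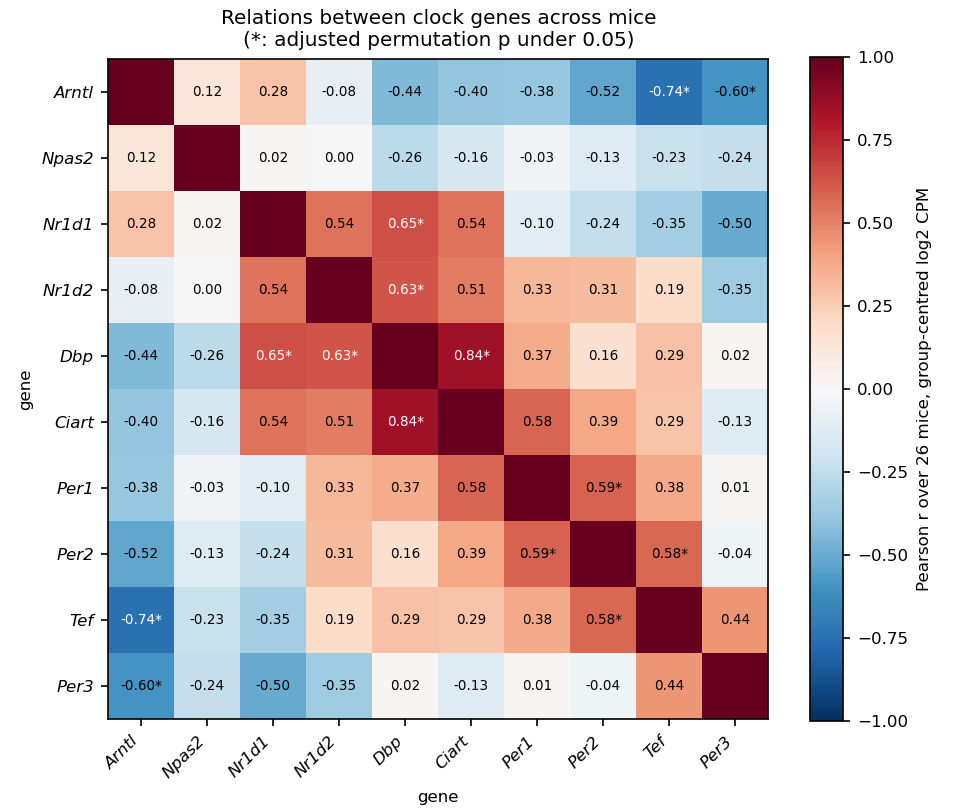
Pearson r between clock genes over 26 mice, from log2 CPM centred on the group means; red is positive, blue negative, and a star marks an adjusted permutation p under 0.05. Nr1d1, Nr1d2, Dbp and Ciart form a positive block, Tef and Per3 oppose Arntl, and Npas2 has r between -0.259 and 0.123 with every other gene.

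To place each mouse on the cycle, 2 differences of log2 CPM were used as axes. Arntl minus Dbp sets the activator against an output in near opposite phase, and Nr1d1 minus Per2 sets an early against a later target. These are descriptions built from the genes above. An alternative to the first axis, Npas2 minus Nr1d2, had an r of only 0.285 with it (n = 26, centred on group means, rho 0.218). Arntl minus Dbp ran from -7.05 in cKO female 3 to -4.44 in Ctrl male 3, a 6.09-fold range of the ratio. Its median was -5.40 in Ctrl males, -5.53 in cKO males, -6.40 in Ctrl females and -5.91 in cKO females. Within each group the values covered 1.85 to 2.23 on the log2 scale, more than the distance between any of these medians. Genotypes of a sex lay side by side on this axis, and 5 of 13 females lay below the lowest male.

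Nr1d1 minus Per2 ran from -0.50 in cKO female 6 to 1.57 in Ctrl male 5, a 4.21-fold range of the ratio. The medians were 1.25 in Ctrl males, 0.96 in cKO males, 0.31 in Ctrl females and 0.17 in cKO females. Of the 13 females, 7 lay below the lowest male (0.38), 3 of them Ctrl and 4 cKO, and the other females reached up to 1.43, inside the male range. The female values were thus spread over 1.94 in cKO and 1.54 in Ctrl, and the male values over 1.16 in cKO and 0.84 in Ctrl. Over all mice and centred on group means, the 2 axes had an r of 0.207 (rho 0.257), and 0.0802 without 2 mice. Within a group, a position on one thus says little of the position on the other. Without centring, which keeps the differences between groups, the r was 0.399. Each r is given as a description, as the axes share libraries.

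A gene outside the 10 followed the second axis. Cry1, a core repressor that peaks later than the Per genes, had an r of -0.768 with Nr1d1 minus Per2 (n = 26, rho -0.74, -0.654 without 2 mice), between -0.675 and -0.911 within groups. Mice low in Nr1d1 relative to Per2 were high in Cry1 in all 4 groups. It is given without a test, as the genes share libraries and depth. The part of the hour of collection in these positions was not tested, since no time is recorded.

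**Figure D4:**
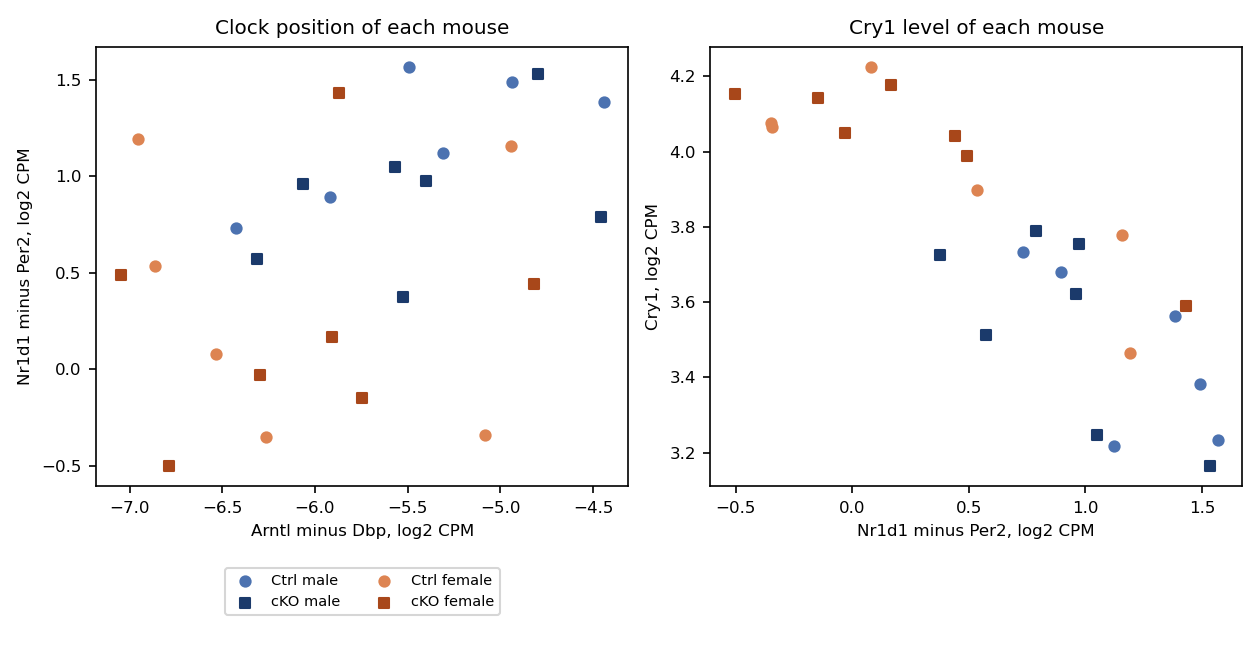
Left, each mouse by Arntl minus Dbp (x) and Nr1d1 minus Per2 (y), in log2 CPM; right, log2 CPM of Cry1 against Nr1d1 minus Per2. Points are mice, blue for males and orange for females, circles for Ctrl and squares for cKO; 7 females lie below the lowest male on Nr1d1 minus Per2, and Cry1 declines along it.

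Of 30 other clock genes (among them activators, cryptochromes, kinases and ubiquitin ligases of the loop), 29 were tested. None was called by genotype in either sex, for the mean or for the difference between the sexes. At an unadjusted p under 0.05 there were 3 in males (13.2% of all genes), 0 in females (5.15%), 2 for the mean (14.1%) and 0 for the difference (3.96%). DESeq2 called 0 in each. Between the sexes 0 were called in Ctrl, where 0.638% of all genes were. In cKO 4 were called, 1 higher and 3 lower in females, against the background of 2.7%. At an unadjusted p under 0.05 there were 7 in Ctrl (12.1% of all genes). In cKO 4 were higher and 6 lower in females at that threshold (17.3% of all genes). DESeq2 called 2 in Ctrl and 4 in cKO, and 253 and 708 of all genes. Cry1 was higher in cKO females, at 16.3 ± 2.07 CPM (SD, n = 7), than in cKO males, at 11.7 ± 1.95 CPM (SD, n = 7). The log2 difference was 0.47 (SE 0.12, edgeR adjusted p = 0.0294). In Ctrl it was 0.46 (SE 0.13, edgeR adjusted p = 0.0899), and there it passed by DESeq2 (adjusted p = 0.0334) and without Ctrl female 1 (edgeR adjusted p = 0.0341). Clock, the partner of BMAL1, was lower in cKO females by -0.27 (SE 0.07, edgeR adjusted p = 0.0406). Csnk2a1, a catalytic subunit of casein kinase 2, was lower by -0.16 (SE 0.04, edgeR adjusted p = 0.0439) and Btrc, a ubiquitin ligase subunit that recognises PER proteins, by -0.21 (SE 0.06, edgeR adjusted p = 0.0461).

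These calls lie close to the threshold. Cry1 lost its call in cKO without cKO male 1, 3, 4 or 5 or without cKO female 2 or 4, with adjusted p of 0.0509 to 0.0667. Clock lost it without cKO male 1, 3, 4, 6 or 7 or cKO female 2, 4, 5 or 6 (0.0541 to 0.0873). Csnk2a1 lost it without any cKO mouse except male 2 and females 1 and 6 (0.0531 to 0.0901), and Btrc without any except male 5 and females 1 and 6 (0.0507 to 0.103). With no filter, Btrc (0.115) and Csnk2a1 (0.086) lost their calls, and Btrc also with only the groups compared (0.0796). The direction of each was the same in all alternatives.

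The 5 other clock genes with the largest r to Arntl minus Dbp were Hlf at -0.7, Usp2 at -0.619, Cry2 at -0.609, Bhlhe41 at -0.485 and Sirt1 at -0.382 (n = 26, no test). Without the 2 outermost mice these were -0.638, -0.584, -0.428, -0.457 and -0.521, and as rho -0.696, -0.585, -0.533, -0.388 and -0.385. Hlf, the third PAR-bZIP factor beside Dbp and Tef, lay in the same direction as both. Of 20 genes known as clock-controlled outputs in heart, 0 were called in any of the 6 comparisons. At an unadjusted p under 0.05, 8 were higher and 2 lower in Ctrl females than in Ctrl males, with a median log2 difference of 0.17 over the 20, where 12.1% of all genes were at an unadjusted p under 0.05. DESeq2 called 2 of them between the Ctrl sexes (Dgat2 and Pik3r1) and 1 between the cKO sexes (Dgat2), against 253 and 708 of all genes.

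Library depth did not follow the axes, as the log2 total count had an r of 0.0016 with Arntl minus Dbp and -0.166 with Nr1d1 minus Per2. Of the marker lists, 2 stood out by their r with Arntl minus Dbp. The summed level of the 6 endothelial markers had an r of 0.63 with Arntl minus Dbp. That sum lay between 833.8 and 1131 CPM in Ctrl males, 801.3 and 1004 CPM in cKO males, 770.0 and 982.0 CPM in Ctrl females and 778.4 and 1179 CPM in cKO females, with no marker at 0 in all libraries of a group. The skeletal muscle markers had an r of -0.5, taken over the 3 of 6 that were tested. Sums over all 6 were 3898 to 5182, 3451 to 5921, 3237 to 4389 and 3084 to 3768 CPM in the same order of groups. Of the 6, 1 was at 0 in all libraries of each group. Nearly all of this sum came from Ckm, with group means of 2742 to 3182 CPM, and Acta1, with 698 to 1438 CPM. Mylpf had group means of 0.46 to 0.50 CPM, so the r describes mainly Ckm and Acta1 and does not show skeletal muscle cells. The other 7 marker lists had r between -0.181 and 0.239 with Arntl minus Dbp. With Nr1d1 minus Per2, the r of all marker lists lay between -0.312 (skeletal muscle) and 0.177 (endothelial). Smooth muscle and pericyte markers were at -0.301 on that axis. The part of cell composition in the clock values was not tested. Between genotypes in males, the cardiomyocyte marker Tnni3 was lower by -0.24 (SE 0.05, edgeR adjusted p = 0.0316). In cKO, Tnni3 and Myl2 were higher in females, by 0.24 and 0.26 (edgeR adjusted p = 0.00821 and 0.0231), and for the mean genotype effect Tnni3 was at -0.17 and Ckm at -0.14 (edgeR adjusted p = 0.0168 and 0.0265). Tnni3 in males lost its call without Ctrl male 1, 4 or 5 or cKO male 1, 2, 5 or 6 (0.0522 to 0.107) or without Ctrl males 3 and 6 together (0.0545), Myl2 without cKO male 6 or cKO female 2 or 4 (0.0501 to 0.0566), and Ckm without Ctrl male 1 or 5, Ctrl female 1 or 4 or cKO female 5 (0.0505 to 0.0554).

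Per1 is induced by glucocorticoids as well as by the clock. Among genes of that response and immediate-early genes, its highest r across mice were 0.909 with Tsc22d3 (rho 0.863, 0.858 without 2 mice), 0.804 with Errfi1 (rho 0.721, 0.683 without 2 mice) and 0.835 with the immediate-early gene Zfp36 (rho 0.878, 0.789 without 2 mice), genes chosen after their values were seen. The lowest were 0.158 with Mt2 (-0.00 without 2 mice) and 0.355 with Zbtb16 among the glucocorticoid-responsive genes, and -0.293 with Egr1 and -0.26 with Junb among the immediate-early genes. Per2 had an r of 0.707 with Tsc22d3, which is also on the list of clock-controlled outputs in heart. All 10 glucocorticoid-responsive genes examined had higher values in Ctrl females than in Ctrl males, with a median log2 difference of 0.58, and 2 of the 10 were called, where 0.638% of all genes were. These were Mt1, a metallothionein gene, at 0.64 (SE 0.12, edgeR adjusted p = 0.00622), and Fkbp5, a co-chaperone of the glucocorticoid receptor, at 1.18 (SE 0.28, edgeR adjusted p = 0.0457). In cKO 1 of the 10 was called, Mt1 at 0.52 (SE 0.11, edgeR adjusted p = 0.0124), where 2.7% of all genes were. DESeq2 called 3 between the Ctrl sexes (Mt1, Fkbp5 and Cdkn1a, the last at a log2 difference of 0.99 in edgeR) and 1 between the cKO sexes (Mt1), against 253 and 708 of all genes. By genotype in males all 10 were above 0 with a median of 0.33, and in females 1 of 10 with a median of -0.09. None was called by edgeR or DESeq2 there, and at an unadjusted p under 0.05 there were 2 in males (13.2% of all genes) and 0 in females (5.15%). Without any single Ctrl mouse other than male 2 and female 5, Fkbp5 lost its call (edgeR adjusted p of 0.0592 to 0.11). It also lost it with no filter (0.0894), with voom (0.0533), with only the groups compared (0.124) and without Ctrl males 3 and 6 together (0.132), when Mt1 in Ctrl lost its call as well (0.0764). The summed level of the 10 genes was 510.6 to 757.7 CPM in Ctrl males, 652.6 to 904.7 CPM in cKO males, 638.5 to 1250 CPM in Ctrl females and 697.6 to 1226 CPM in cKO females. Their part in the Per1 and Per2 values was not tested. Of 12 immediate-early genes, 11 were tested and 0 were called in any comparison, by edgeR or by DESeq2. At an unadjusted p under 0.05 there were 3 by genotype in males (13.2% of all genes), 0 in females (5.15%), 2 for the difference (3.96%), 0 for the mean (14.1%), 1 between the Ctrl sexes (12.1%) and 4 between the cKO sexes (17.3%).

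Among all other genes tested, those most like Arntl across mice, by Pearson r of group-centred log2 CPM over 26 mice, were Spon2 (0.76), Srrt (0.752), Atg16l2 (0.714), Sav1 (0.7) and Rflnb (0.689). The most opposed were Gm16685 (-0.795), Bche (-0.718), Adamtsl4 (-0.718), Hlf (-0.712) and Rrm2b (-0.708). For Dbp the most alike were Gm1848 (0.722), Cradd (0.708), Lix1l (0.696), Dda1 (0.688) and 0610010K14Rik (0.686), and the most opposed Arhgef18 (-0.78), Rufy2 (-0.755), Ddhd2 (-0.741), Csnk1g1 (-0.738) and Naa60 (-0.71). Of these 20, Hlf alone is in the list of other clock genes. They are the extremes over all genes tested in 26 mice, and what chance alone would give was not tested. Some were scarce, with a mean log2 CPM of -0.689 for Gm1848, -0.47 for Gm16685, 0.321 for 0610010K14Rik and 0.388 for Spon2. Ciart, with an r of 0.845, was nearer to Dbp than any gene outside the 10.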

How the data were processed

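The deposited matrix holds raw whole-number counts for each gene in 26 libraries, without normalization. Per the labels' protocols, strand-specific libraries were made after poly-A selection from RNA with integrity of at least 7.7. The submitters' processing notes name FastQC 0.74, cutadapt 4.6, STAR 2.7.11a, HTSeq and the build GRCm39. Which annotation was used, and whether counting was stranded, is not given in the sources used here. Promoters are from RefSeq on GRCm38.p6 and transcript lengths from GENCODE, used for length only.

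Genes were filtered by filterByExpr (minimum count 10), scaled by TMM and fitted in edgeR 4.0.16 (R 4.3.3) with 4 group means over 26 libraries. Benjamini-Hochberg adjustment covered the 15357 genes tested. CPM used TMM-scaled totals and log2 CPM a prior count of 2. Relations between genes used permutation within groups (Python, numpy). Alternatives used DESeq2 1.42.0, limma 3.58.1 voom, other filters and scaling, a replicate block and leaving out mice. Chi-square per degree of freedom over the 72 pairs of libraries within groups was 7.19 to 33.4, so no library was counted as a duplicate. Both methods were tested on simulated data. Leaving out Ctrl males 3 and 6 together was chosen after seeing the data.

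The 10 genes and all lists were chosen with earlier results of these data known. Genes named are the 10, list genes called in any comparison, the 5 other clock genes with the largest r to Arntl minus Dbp, the 5 highest and 5 lowest r to Arntl and to Dbp, and Ppp2r2a. Tsc22d3, Errfi1, Zfp36, Mt2, Zbtb16, Junb, Egr1, Dgat2, Pik3r1 and Cdkn1a fall outside this rule and were chosen after their values were seen. A further result is not reported here.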

Additional observations from a re-analysis of the deposited data

Results flagged for a closer look

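Of 48 sets of values tested for a single distant mouse (10 genes and 2 axes in 4 groups), 1 was marked. Nr1d2 in cKO female 2, at 7.1661 log2 CPM (143.5 CPM), lay far above the next mouse of its group at 6.82, with a gap of 0.673 of the group's range against a limit of 0.568. Chance marks about 1 in 20 such sets. This library has the lowest total of all, 14403102 counts, and also holds the highest Per2 of all mice, 73.3 CPM.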

How the results depend on the processing

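Of 1468 recomputed log2 fold changes of the 10 genes under the alternatives, 149 had the other sign and none of these was called; they belong to 26 of 60 fold changes, all within 0.17 of 0 in the fit reported. DESeq2 called 1 of the 10 genes in males and 1 between the Ctrl sexes, both Per2, and leaving out mice gave 0 to 1 in both comparisons of sex. The other counts of called clock genes were 0 in all alternatives run. With library totals 2 pairs of genes were related and without centring on group means 14, against 7, and the SD of mice within groups on Arntl minus Dbp, 0.744, was 0.425 for Npas2 minus Nr1d2. The cause was not tested. Arntl and Npas2 give no value under the filter on a mean of 5 CPM.

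Reversed values were, for Arntl, 0.000392 with DESeq2 size factors, 0.0066 with DESeq2 and 0.19 without Ctrl males 3 and 6 in males (-0.14 to 0.14 leaving out mice), and -0.0336 with voom in females (-0.18 to 0.31). Without Ctrl males 3 and 6, the male values were -0.0402 for Dbp, -0.031 for Per3 and -0.0121 for Tef, and Tef was at 0.000111 in females under the filter on 5 CPM. Leaving out mice gave -0.0298 to 0.0879 for Dbp in males, and in females -0.177 to 0.0188 for Dbp, -0.188 to 0.137 for Nr1d1, -0.0952 to 0.0186 for Nr1d2, -0.0583 to 0.215 for Per1, -0.0274 to 0.095 for Per3 and -0.0379 to 0.0335 for Tef.

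Counts over all genes depended on the method. In males (68 called) there were 31 with no filter, 164 at 5 CPM, 188 with voom, 386 with DESeq2 and 7 without Ctrl males 3 and 6, and 4 to 79 leaving out mice, the lowest without Ctrl male 5. In females (5) there were 2 at 5 CPM, 9 with DESeq2, 1 with only the groups compared, and 3 to 7 leaving out mice. For the mean (205) there were 113 with no filter, 312 with voom, 525 with DESeq2 and 96 to 349 leaving out mice. Between cKO sexes (414) there were 244 with no filter, 670 with voom, 708 with DESeq2 and 163 to 548 leaving out mice. Between Ctrl sexes (98) there were 253 with DESeq2, 61 with only the groups compared, 60 with Arntl minus Dbp as a covariate, 40 without Ctrl males 3 and 6 and 54 to 114 leaving out mice.

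Mice share replicate numbers across groups. The mean correlation of same-numbered mice was -0.026 between male genotypes, 0.118 between female genotypes, -0.0068 between Ctrl sexes and 0.03 between cKO sexes. For mice of unlike number it was 0.0043, -0.0186, 0.0013 and -0.0049 in the same order. Between female genotypes the same-numbered values reached 0.404. Whether the numbers pair mice cannot be told from these values, and the fit reported did not pair them. With the replicate number as a block, 1 gene was called in males, 1 in females, 37 between Ctrl sexes and 109 for the mean, and adjusted p rose to 0.062 for Ppp2r2a and 0.126 for Tnni3 in males, 0.167 for Fkbp5 between Ctrl sexes, 0.0751, 0.0595 and 0.0585 for Btrc, Csnk2a1 and Mt1 between cKO sexes, and 0.0869 for Ckm for the mean. With the block Arntl in females was at -0.15, Dbp in females at 0.0205, Nr1d2 in females at 0.0058 and Tef in females at 0.0149, and no clock gene was called. For Arntl and Npas2, depth limits what can be detected.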
